A study of Oryctolagus cuniculus with 27 samples.

Results

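The genes described here are those of glycolysis, lactate handling and the response to low oxygen, named as a list of 37 and measured in rabbit aortic valve, ascending aorta and left ventricular myocardium. They were taken by gene symbol from the full count tables of the 3 tissues, which list 31346 genes each, and 36 of the 37 were found. SLC2A3, a glucose transporter, is not listed under that symbol and was not analysed here. All animals were male wild-type New Zealand rabbits. The diet groups ate chow supplemented with 1% cholesterol and 3500 IU of ergocalciferol, which the design text gives per kg per day, and the controls ate a normal diet. The valve was sampled as 1 cusp per animal, freed of most of the fat around it, with 4 libraries each for control valves and for valves after 2, 4 and 7 weeks of diet. Aorta gave 3 control and 2 diet libraries and myocardium 3 of each, and the labels give no duration of diet for these tissues. The titles of the control valves name 7 weeks for 3 libraries and 2 weeks for 1, whereas the design text speaks of controls pooled from 2 and 4 weeks, so the time point of the controls is uncertain.

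The library names carry animal numbers, and these show that some tissues came from the same rabbits. Control valve replicates 2 and 3 shared animals with control myocardium replicates 1 and 2. The 7-week valve replicates 1, 2 and 4 shared animals with diet myocardium replicates 2, 3 and 1, and 2-week valve replicate 1 shared its animal with diet aorta replicate 1. By these numbers the diet myocardia came from 7-week animals and diet aorta replicate 1 from a 2-week animal. Diet aorta replicate 2 shared its animal with no valve library. Each library within a group came from a different animal. Totals ran from 8.458 to 20 M counts in the valve libraries, 11.51 to 16.11 M in aorta and 13.95 to 17.32 M in myocardium.

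Glycolysis splits glucose into pyruvate in the cytosol. Lactate dehydrogenase then reduces pyruvate to lactate, which leaves the cell through monocarboxylate transporters, or pyruvate enters the mitochondria and is oxidised. When oxygen falls, prolyl hydroxylases no longer mark the alpha subunits of the hypoxia-inducible factors for destruction, and these factors then raise the transcription of glucose transporters, glycolytic enzymes, VEGFA and other targets. Much of this control acts on the proteins of the factors, which RNA levels do not show. Aortic valve cusps are thin and largely without blood vessels, whereas heart muscle is rich in muscle isoforms of glycolytic enzymes and in mitochondria.

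Transcripts of several other cell types varied between the valve groups, and they are given here because the members are also expressed in those cells. The 20 cardiomyocyte markers in the tables summed to a median of 22760 CPM in control valves (lowest 8593, highest 46490), 3788 after 2 weeks (2277 to 6767), 12160 after 4 weeks (2779 to 28640) and 24380 after 7 weeks (8937 to 55440). The same sum was 1799 to 2294 CPM in control aorta and 91770 to 156200 in control myocardium. The 15 macrophage markers summed to a median of 228.3 CPM in control valves, 216.1 after 2 weeks, 1086 after 4 weeks and 998.8 after 7 weeks. The 8 smooth muscle markers summed to a median of 20330 CPM in control valves, 37040 after 2 weeks, 15920 after 4 weeks and 11130 after 7 weeks. The 4 atrial markers summed to 3.48 to 13.7 CPM in control valves, 0.591 to 449.6 after 2 weeks, 195 to 6736 after 4 weeks and 408 to 4091 after 7 weeks. Of these 3 were called higher than in controls at 4 weeks and 4 at 7 weeks. The 10 erythroid markers summed to 1169 to 3467 CPM in controls and 4368 to 8524 after 7 weeks, where 5 of the 8 tested were called higher. The 10 cell cycle markers summed to 42.2 to 63.4 CPM in controls and 56.7 to 101.6 after 7 weeks, where 5 of the 9 tested were called higher, as were 4 at 4 weeks. The 9 neutrophil markers summed to 0.762 to 3.64 CPM in controls and 5.07 to 27.3 after 7 weeks. Of the 4 neutrophil markers tested, 3 were called higher at 7 weeks than in controls. The part of these cells in the changes of the members was not tested, other than by the cardiomyocyte covariate described with the change from 2 to 7 weeks. Means were above 1 CPM for all 8 valve interstitial and fibroblast markers in valve and all 8 smooth muscle markers in aorta. They were also above 1 CPM for all 20 cardiomyocyte markers in myocardium. This cutoff does not tell the tissues apart, since all 20 cardiomyocyte markers also passed it in valve. All 8 smooth muscle and all 8 fibroblast markers passed it in myocardium. The smooth muscle sum was 52830 to 65230 CPM in control aorta and 2457 to 3213 in control myocardium. The fibroblast marker sum of control valves (11560 to 17810 CPM) overlapped that of control aorta (12790 to 17600). In such bulk samples, fewer cells of a type and less RNA per cell cannot be told apart. The 7-week libraries carry the numbers 1 to 4, away from those of the other valve groups (21 for 4-week replicate 1, the rest 27 to 38). If the 7-week libraries were run on their own, run and group cannot be told apart. Aorta and myocardium libraries carry the numbers 18 to 29, and 21, 27, 28 and 29 also occur among the valve libraries. If the valves were run apart from the other tissues, run and tissue cannot be told apart.

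Levels are given below as normalised CPM, that is counts scaled to the library size with TMM factors over all 27 libraries, in the order of the replicate numbers. Differences between groups are on the log2 scale and positive where the diet group or the later time was higher, and the ± beside them is the SE from the edgeR quasi-likelihood fit. The adjusted p is Benjamini-Hochberg over all genes tested, with a threshold of 0.05. The tables count reads per gene without its length, so levels are compared between samples and not between genes.

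Most edgeR calls among the members fell between 2 and 7 weeks of diet, and few against the controls. After 2 weeks of diet 0 of 36 members passed the threshold against controls in edgeR, where 0.025% of all genes tested passed. Of the members, 15 (41.7%) had an unadjusted p under 0.05, beside 16.4% of all genes. DESeq2 called 6 (16.7%), beside 6.04% of all genes, the LDHA row and PFKP higher and LDHB, PFKM, SLC16A3 and VEGFA lower. All 4 diet libraries lay above all 4 controls in 3 members and below them in 5, beside 4.75% and 6.05% of all genes. The median log2 difference of the members was -0.117, beside 0.018 over all genes. After 4 weeks HK3 alone rose (1 of 36, with 2% of all genes called, 1.94% higher). After 7 weeks the row named LDHA rose and PFKP fell (2 of 36, with 7.79% of all genes called, 5.2% higher and 2.6% lower), and the members' median was 0.231 beside -0.008. Groups did not overlap at 7 weeks for 4 members above and 2 below the controls, beside 8.4% and 7.11% of all genes. DESeq2 called 8 members at 7 weeks (22.2%, beside 13.9% of all genes), the LDHA row, HK2, HK3, PGAM1, SLC16A1 and SLC16A3 higher and PDK1 and PFKP lower. The share of members called against controls was thus near that of all genes with edgeR, and above it with DESeq2 at 2 and 7 weeks.

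Between the diet groups, 3 members rose and 1 fell from 2 to 4 weeks (HK3, SLC16A3, VEGFA and PFKP), with 4.36% of all genes called, 3.14% higher and 1.23% lower. From 4 to 7 weeks edgeR called 0 of 36, with 0.1% of all genes called, 5 members at an unadjusted p under 0.05 (beside 12% of all genes), and 1 called by DESeq2 (PFKP, beside 1.3% of all genes). From 2 to 7 weeks 14 members rose and 1 fell, which is 41.7% of the members beside 26.7% of all genes. For the higher direction alone the share over all genes was 14.5% and for the lower 12.2%. The members' median difference from 2 to 7 weeks was 0.346, beside 0.02 over all genes. The heat map of valve levels shows that the 2-week libraries stood low for most enzymes of the lower pathway, while control and 7-week libraries overlapped.

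**Figure D1:**
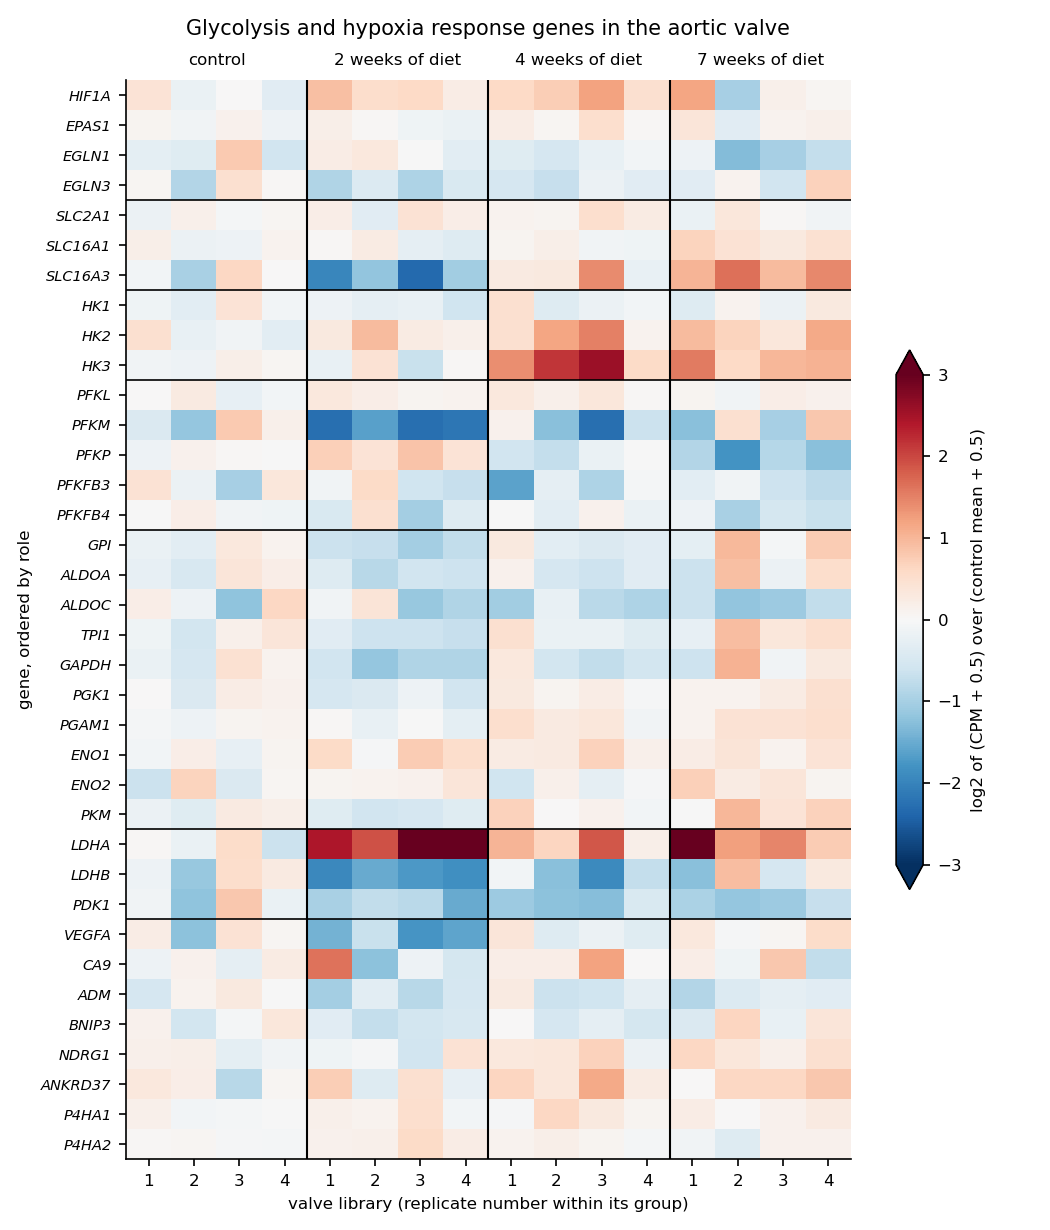
Heat map of the 36 members (rows, grouped by role) in the 16 valve libraries (columns, by group), where colour is the log2 ratio of a library's normalised CPM to the mean of the 4 controls (0.5 added to both), and colours saturate at the ends of the scale, 3 and -3. The 2-week libraries stand low for PFKM, LDHB and SLC16A3 and high for PFKP, which is lowest in the 7-week libraries, and the LDHA row is dark in 2-week replicates 3 and 4 and 7-week replicate 1.

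Of the regulators, neither alpha subunit passed the threshold in a valve comparison with edgeR or DESeq2. HIF1A encodes the widely expressed alpha subunit of the hypoxia-inducible factor. It stood at 291, 189, 218 and 173 CPM in the control valves, 409.9, 316, 330 and 255 after 2 weeks, 329.6, 366, 504 and 306 after 4 weeks and 494, 108, 243 and 226 after 7 weeks. All 4 libraries of the 4-week group lay above all 4 controls, but the difference of 0.78 ± 0.33 did not pass (adjusted p = 0.31), and the 7-week libraries covered the range of every other valve group except the highest 4-week value. The difference at 7 weeks was 0.32 ± 0.33 (adjusted p = 0.569). EPAS1, the alpha subunit prominent in endothelium, was steadier, with 640.4, 560.3, 664 and 546 CPM in controls, 685, 613, 553 and 526 after 2 weeks, 698, 623, 848 and 616 after 4 weeks and 779.7, 473, 648 and 669 after 7 weeks. Its differences from controls were -0.02 ± 0.17, 0.21 ± 0.17 and 0.12 ± 0.17 at 2, 4 and 7 weeks, each within the overlap of the groups.

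The prolyl hydroxylases EGLN1 and EGLN3, which mark the alpha subunits for destruction and are themselves hypoxia targets in part, did not pass in any valve comparison with edgeR. From 2 to 7 weeks they stood close to the threshold there, EGLN1 at -0.80 ± 0.29 (adjusted p = 0.0523) and EGLN3 at 0.75 ± 0.28 (adjusted p = 0.0593), and DESeq2 called EGLN1 lower (adjusted p = 0.0307) and EGLN3 higher (adjusted p = 0.0395). EGLN1 ranged from 17.8 to 46.9 CPM in controls and from 10.7 to 24.2 after 7 weeks, with a difference of -0.71 ± 0.29 (adjusted p = 0.138). EGLN3 ranged from 17.7 to 45.8 CPM in controls, 17.1 to 24.5 after 2 weeks, 20.1 to 29.1 after 4 weeks and 21.96 to 53.8 after 7 weeks.

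Among the transporters, the lactate exporter SLC16A3 had the largest called change of a member between the diet groups. SLC16A3 encodes the monocarboxylate transporter MCT4, known from glycolytic cells. It stood at 3.796, 1.795, 6.46 and 4.08 CPM in control valves, 0.672, 1.495, 0.394 and 1.695 after 2 weeks, 4.98, 5.08, 11.6 and 3.38 after 4 weeks and 8.71, 13.7, 8.22 and 11.9 after 7 weeks. The 2-week libraries were the lowest, each below every control, and the 4-week and 7-week libraries lay above all of them. SLC16A3 rose 9.85-fold from 2 to 7 weeks (3.30 ± 0.50, adjusted p = 0.000955) and 5.66-fold from 2 to 4 weeks (2.50 ± 0.49, adjusted p = 0.0119), and both calls held without any 1 library. The second call was lost in the edgeR fit of the 2 groups alone (adjusted p = 0.0561). Against controls it stood at -1.87 ± 0.48 after 2 weeks (adjusted p = 0.0774) and at 1.43 ± 0.46 after 7 weeks (adjusted p = 0.0642), where all 7-week libraries were above all controls.

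SLC16A1, encoding MCT1, which carries lactate in either direction, changed less. It stood at 39.1, 30.7, 30.95 and 37.3 CPM in controls, 35.4, 40.97, 28.7 and 26.1 after 2 weeks, 36.8, 39.1, 32.1 and 31.7 after 4 weeks and 55.03, 46.4, 42.6 and 47.3 after 7 weeks. All 7-week libraries were above the others, and SLC16A1 rose from 2 to 7 weeks by 0.57 ± 0.15 (adjusted p = 0.0134), while the difference from controls was 0.50 ± 0.15 (adjusted p = 0.0522). SLC2A1, the basal glucose transporter GLUT1 and a textbook target of the factors, stood at 34.2, 43.6, 37.2 and 40.6 CPM in controls, 45.03, 30.5, 52.95 and 44.9 after 2 weeks, 41.7, 41.4, 55.5 and 46.6 after 4 weeks and 33.8, 49.03, 39.9 and 36.02 after 7 weeks. Its groups overlapped throughout, with differences from controls of 0.16 ± 0.17, 0.25 ± 0.17 and 0.06 ± 0.17.

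Hexokinases trap glucose in the cell by phosphorylating it, and of the 3 listed HK3 passed in the valve with edgeR while HK1 and HK2 did not. HK3, a form found mainly in myeloid cells, was at a low level: 0.515, 0.4896, 0.742 and 0.653 CPM in controls, 0.448, 0.997, 0.197 and 0.624 after 2 weeks, 2.38, 4.38, 6.06 and 1.13 after 4 weeks and 2.75, 1.17, 1.69 and 1.78 after 7 weeks. All 4-week and 7-week libraries lay above all controls and all 2-week libraries. HK3 rose 5.74-fold from control to 4 weeks (2.52 ± 0.52, adjusted p = 0.0225), 5.92-fold from 2 to 4 weeks (2.57 ± 0.51, adjusted p = 0.0126) and 3.27-fold from 2 to 7 weeks (1.71 ± 0.51, adjusted p = 0.0238). The first call was lost when 4-week replicate 2 or 3, or any of control replicates 2 to 4, was left out (2.12 to 2.632, adjusted p 0.0631 to 0.0945), the second without 2-week replicate 1 (2.472, adjusted p = 0.0509), and the third without 2-week replicate 1 or 3 (1.446 to 1.618). In the 4-week group the macrophage marker sum ran in the same order as HK3, with 884, 1288, 1598 and 366 CPM in replicates 1 to 4. The order was also shared in the 2-week group, and it differed in the 7-week group (947, 1051, 878 and 1294 CPM) and in the controls (340.3, 189, 210.1 and 246 CPM). Of the 15 macrophage markers, 13 were called higher than in controls at 4 weeks and 13 at 7 weeks, and 14 were called higher at each of these times than at 2 weeks. Of the 4 neutrophil markers tested, 0 were called at 4 weeks against controls or 2 weeks, and 4 were called higher from 2 to 7 weeks. The part of macrophage or neutrophil RNA in the HK3 result was not tested.

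HK2, the inducible muscle and tumour form, stood at 10.6, 6.26, 6.83 and 5.799 CPM in controls, 9.19, 14.6, 8.802 and 8.295 after 2 weeks, 10.5, 17.3, 21.8 and 8.02 after 4 weeks and 14.6, 11.96, 9.46 and 16.8 after 7 weeks. Its differences from controls of 0.96 ± 0.31 at 4 weeks (adjusted p = 0.138) and 0.87 ± 0.31 at 7 weeks (adjusted p = 0.0904) did not pass with edgeR, and DESeq2 called the second of them (adjusted p = 0.0481). HK1, the form of most tissues, stood at 138, 122, 201 and 143 CPM in controls, 136, 124, 129 and 99.99 after 2 weeks, 211, 115, 134 and 143 after 4 weeks and 115, 163, 134 and 184 after 7 weeks. The HK1 groups overlapped, and its difference at 7 weeks was 0.02 ± 0.21.

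**Figure D2:**
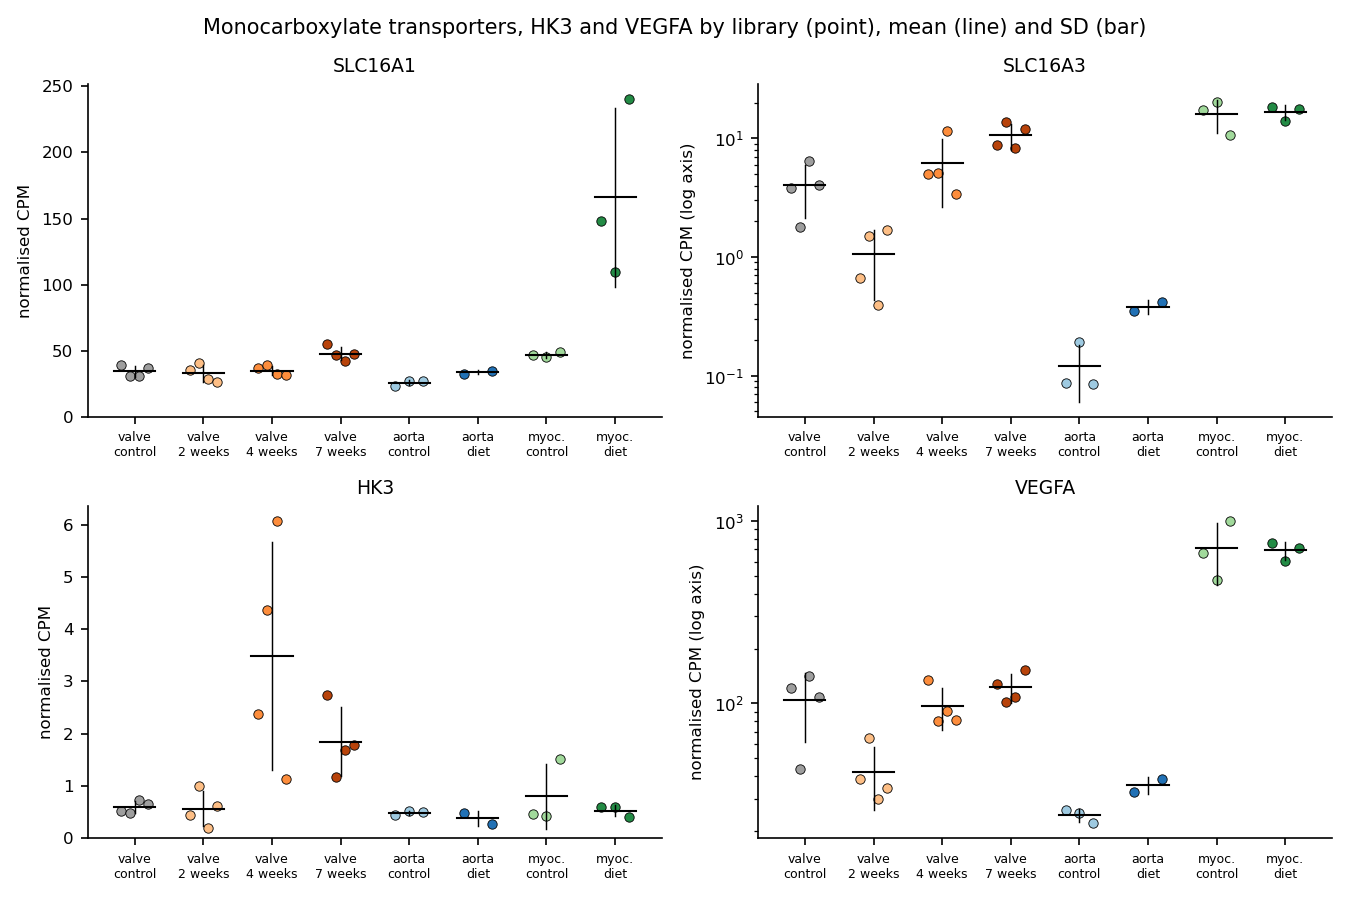
Normalised CPM of SLC16A1, SLC16A3, HK3 and VEGFA in each of the 27 libraries, by tissue and group ("myoc." is myocardium). Points are libraries, the line is the group mean and the bar its SD, and the axes of SLC16A3 and VEGFA are logarithmic. SLC16A3 and VEGFA have their lowest valve means after 2 weeks, HK3 is highest after 4 weeks, and SLC16A1 is highest in diet myocardium.

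Phosphofructokinase commits sugar to glycolysis, and of its 3 subunit genes PFKP and PFKM were called in opposite directions from 2 to 7 weeks in the valve, while PFKL was not called. PFKP, the platelet form of many non-muscle cells, fell with longer diet. It stood at 118, 143, 135 and 130.4 CPM in controls, 216, 174, 239.6 and 174 after 2 weeks, 87.9, 79.6, 115 and 132 after 4 weeks and 70.95, 37.8, 72.4 and 54.9 after 7 weeks. Every 2-week library was above every control, and every 7-week library was below all other valve libraries. PFKP fell by 1.13 ± 0.20 against controls at 7 weeks (2.19-fold lower, adjusted p = 0.00706), a call kept in all 16 alternatives run for it, in which it ranged from -1.246 to -0.966. It fell by 1.74 ± 0.21 from 2 to 7 weeks (adjusted p = 0.000444) and by 0.96 ± 0.20 from 2 to 4 weeks (adjusted p = 0.016). The last call was lost without 4-week replicate 1 or 2 or 2-week replicate 1 or 3 (-0.927 to -0.858). It was also lost with the cardiomyocyte covariate. The smooth muscle marker sum had the same order of group medians, highest after 2 weeks and lowest after 7, with 18790 to 30720 CPM in controls and 8183 to 12750 after 7 weeks, and 6 of its 8 markers were called lower at 7 weeks than in controls. Its part in the PFKP result was not tested.

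PFKM, the muscle form, rose from 2 to 7 weeks. It stood at 183, 111, 427 and 274 CPM in controls, 51.5, 80.5, 51.7 and 55.1 after 2 weeks, 271, 103, 51.6 and 158 after 4 weeks and 104, 348, 125 and 434 after 7 weeks. The 2-week libraries lay below every control and every 7-week library, and the 4-week and 7-week groups overlapped the controls. PFKM rose 4.31-fold from 2 to 7 weeks (2.11 ± 0.55, adjusted p = 0.0125) and stood at -2.05 ± 0.54 after 2 weeks against controls (adjusted p = 0.0826). PFKL, the liver form, stood at 47.6, 56.7, 39.3 and 44.3 CPM in controls, 58.3, 53.7, 49.3 and 50.2 after 2 weeks, 58.9, 52.7, 59.9 and 48 after 4 weeks and 49.4, 43.8, 53.8 and 51.02 after 7 weeks, with a difference of 0.11 ± 0.13 at 7 weeks. Its 4 valve groups overlapped.

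PFKFB3 and PFKFB4 make fructose 2,6-bisphosphate, the activator of phosphofructokinase, and both were low in the valve. PFKFB3 stood at 6.24, 3.92, 2.004 and 5.88 CPM in controls, 4.18, 6.98, 2.83 and 2.59 after 2 weeks, 1.14, 3.67, 2.12 and 4.28 after 4 weeks and 3.53, 4.16, 2.76 and 2.398 after 7 weeks, with overlapping groups and a difference of -0.47 ± 0.45 at 7 weeks. PFKFB4 ranged from 0.854 to 3.32 CPM over the 16 valve libraries.

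**Figure D3:**
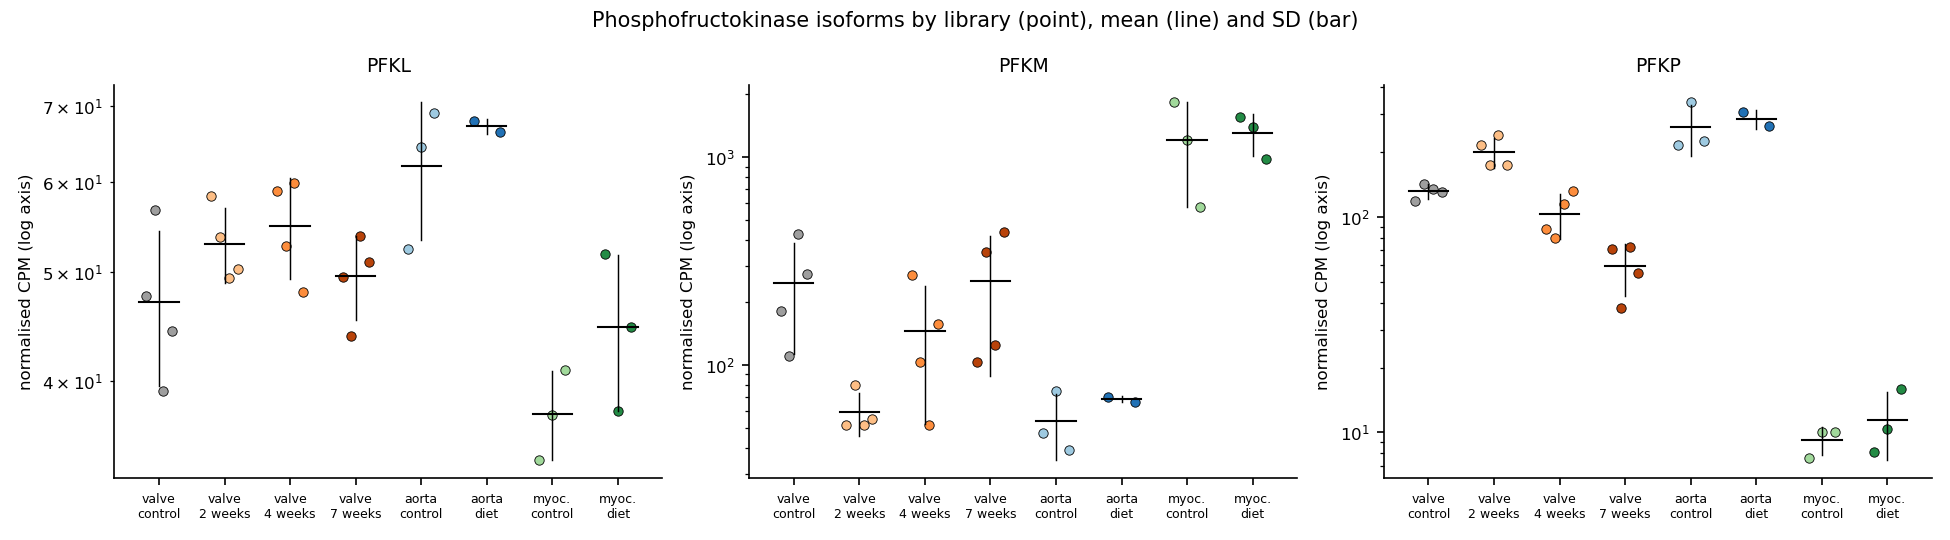
Normalised CPM of PFKL, PFKM and PFKP in the 27 libraries on logarithmic axes, by tissue and group ("myoc." is myocardium). Points are libraries, the line is the group mean and the bar its SD. PFKP falls with weeks of diet in the valve, PFKM is lowest in 2-week valves and aorta and highest in myocardium, and PFKL stays within a narrow range.

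The enzymes of the remaining steps of glycolysis were called higher from 2 to 7 weeks in 7 of 10 genes, beside 14.5% of all genes. These 7 calls were lost with the cardiomyocyte covariate described below. With edgeR on the 16 valve libraries the 7 genes were not among the members called against controls. DESeq2 called PGAM1 higher than controls at 7 weeks (0.418, adjusted p = 0.0392), and the edgeR fit of the 2 groups alone called GPI lower at 2 weeks (-0.766, adjusted p = 0.0487). GPI, which turns glucose 6-phosphate into fructose 6-phosphate, stood at 173, 166, 132 and 162 CPM after 2 weeks and 219.7, 524, 259.6 and 458 after 7 weeks. All 4 later libraries lay above the earlier ones, and GPI rose by 1.24 ± 0.27 (adjusted p = 0.00503). In the controls GPI stood at 233, 215, 337 and 291 CPM, between the 2-week and the highest 7-week libraries. TPI1, triosephosphate isomerase, stood at 283, 232, 231 and 219.6 CPM after 2 weeks, 299.7, 684, 455 and 510 after 7 weeks and 327, 242, 398 and 462 in controls. It rose by 1.05 ± 0.26 from 2 to 7 weeks (adjusted p = 0.0107), with no overlap between these groups. GAPDH, which yields the first NADH of the pathway and often serves as a reference gene, stood at 1419, 944, 1118 and 1127 CPM after 2 weeks, 1353, 4305, 1943 and 2569 after 7 weeks and 1818, 1475, 2858 and 2240 in controls. GAPDH rose by 1.18 ± 0.34 from 2 to 7 weeks (adjusted p = 0.0211), and the 7-week replicate 1 lay below the highest 2-week library.

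PKM, pyruvate kinase, which makes ATP in the last step, stood at 377, 325, 341 and 381 CPM after 2 weeks, 480, 965, 646 and 784 after 7 weeks and 434, 377, 588 and 549 in controls. It rose by 1.05 ± 0.23 (adjusted p = 0.00562), with every 7-week library above every 2-week one. ALDOA, the muscle aldolase, rose by 0.90 ± 0.30 from 2 to 7 weeks (624 to 849.8 CPM after 2 weeks, 714 to 2092 after 7). PGK1, phosphoglycerate kinase, rose by 0.66 ± 0.15 (101 to 135 CPM after 2 weeks, 159.5 to 207 after 7), and PGAM1, phosphoglycerate mutase, by 0.52 ± 0.15 (145 to 179.8 and 189 to 249 CPM). The calls of ALDOA and BNIP3 were lost without 7-week replicate 2 or 4 or any 2-week library (0.588 to 0.973 for ALDOA, 0.482 to 0.766 for BNIP3), that of GAPDH without 7-week replicate 2 or 2-week replicate 2 or 3 (0.78 to 1.174), and that of PGAM1 without 7-week replicate 4 (0.489). Those of ALDOA and BNIP3 were also lost without a filter on low counts, with a block by replicate number and in the fit of the 2 groups alone. The other 3 genes did not pass from 2 to 7 weeks. ENO1, the common enolase, stood at -0.16 ± 0.18, ENO2, the neuronal enolase, at 0.25 ± 0.31 and ALDOC, the brain aldolase, at -0.57 ± 0.36. ALDOC ranged from 23.8 to 85.9 CPM in controls to 24.3 to 35.7 after 7 weeks.

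Lactate dehydrogenase A, the muscle subunit that favours lactate, is split over 2 rows of the tables, so its levels need both. Reads were assigned to the row named LDHA and to the row LOC100009107, whose gene number carries the symbol LDHA in the RefSeq gene table, and both rows held fractions of reads in all 27 libraries. The LDHA row stood at 1.87, 1.52, 2.895 and 0.9802 CPM in controls, 12.02, 8.19, 64.6 and 67.9 after 2 weeks, 4.16, 3.13, 7.94 and 2.12 after 4 weeks and 129, 4.94, 5.91 and 3.402 after 7 weeks. It rose by 4.32 ± 1.15 at 7 weeks against controls (adjusted p = 0.0335), a call lost without 7-week replicate 1 or without any 1 control (1.419 to 4.614, adjusted p 0.0677 to 0.168). The call was also lost with the cardiomyocyte covariate, with a block by replicate number and in the fit of the 2 groups alone. The share of the 2 rows' reads on the LDHA row was 47.9% in 7-week replicate 1, 51% and 51.5% in 2-week replicates 3 and 4 and at most 8.11% in the other 13 valve libraries. Diet myocardium replicate 2, from the same animal as 7-week replicate 1, had a share of 64%, and control aorta replicate 3 had 55.5%.

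With the rows summed, an alternative chosen after seeing the data, the level was 148, 79.7, 62.7 and 102 CPM in controls, 148, 106, 127 and 132 after 2 weeks, 227, 254, 362 and 136 after 4 weeks and 269, 155, 250.2 and 251 after 7 weeks. All 7-week libraries lay above all controls, and 3 of the 4 libraries of the 4-week group did. The sum rose 2.4-fold at 7 weeks (1.26 ± 0.29, adjusted p = 0.0178) and 2.48-fold at 4 weeks (1.31 ± 0.29, adjusted p = 0.0309) and stood at 0.39 ± 0.28 at 2 weeks. From 2 to 7 weeks it rose by 0.88 ± 0.29 (adjusted p = 0.0342). The 4-week call was lost when any of 4-week replicates 1 to 3 or control replicates 2 to 4 was left out (1.074 to 1.341). It was also lost with the cardiomyocyte covariate (0.994, adjusted p = 0.105), with a replicate block by number (1.437, adjusted p = 0.0665) and in the fit of the 2 groups alone (1.306, adjusted p = 0.139). The 7-week call was lost without control replicate 2 (1.179, adjusted p = 0.0597) or 3 (1.094, adjusted p = 0.0608), and the call from 2 to 7 weeks without 7-week replicate 1, 3 or 4 or any 2-week library (0.792 to 0.949).

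**Figure D4:**
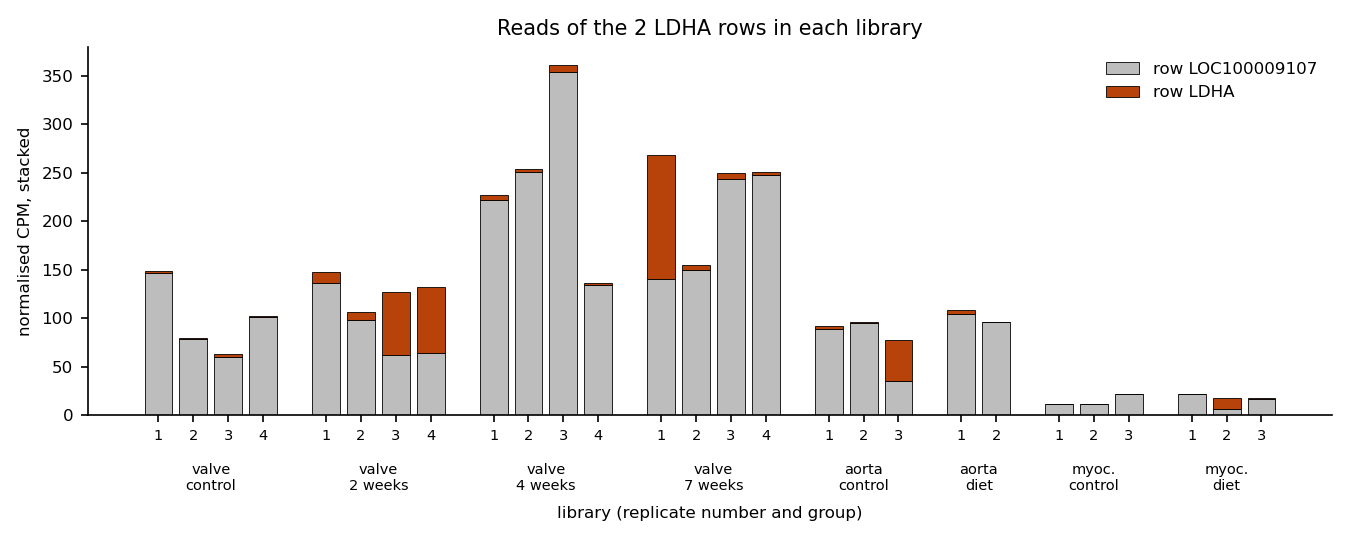
Stacked bars of the normalised CPM of the row LOC100009107 (grey) and the row LDHA (red-brown) in each of the 27 libraries, by replicate number and group ("myoc." is myocardium), so that the bar's height is their sum. The LDHA row is high in single libraries, among them 7-week valve replicate 1 at 128.7 CPM, while the summed level is higher in the 4-week and 7-week valves than in most controls and lowest in myocardium.

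LDHB, the heart subunit, stood at 946, 485, 1529 and 1279 CPM in controls, 275, 372, 319.6 and 294 after 2 weeks, 998, 443, 281 and 648 after 4 weeks and 443, 2030, 749 and 1306 after 7 weeks. The 2-week libraries lay below all controls and all 7-week libraries. LDHB rose 3.68-fold from 2 to 7 weeks (1.88 ± 0.47, adjusted p = 0.0106) and stood at 0.14 ± 0.46 at 7 weeks against controls. PDK1, a target of the factors, encodes a kinase of pyruvate dehydrogenase that holds back the oxidation of pyruvate in the mitochondria. It stood at 46.1, 21, 87.4 and 43.3 CPM in controls, 24.8, 29.7, 28.1 and 17.04 after 2 weeks, 22.95, 20.8, 20.2 and 36.1 after 4 weeks and 25.4, 21.98, 23.03 and 30.7 after 7 weeks. Control replicate 2 lay within the diet groups and the other 3 controls above them. The differences of -0.98 ± 0.32, -0.98 ± 0.32 and -0.93 ± 0.32 at 2, 4 and 7 weeks did not pass with edgeR (adjusted p = 0.132, 0.154 and 0.085), and DESeq2 called the last of them (adjusted p = 0.046).

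Of the other hypoxia targets, VEGFA, the growth factor of blood vessels, changed the most. It stood at 121, 43.9, 142 and 109 CPM in controls, 38.4, 65, 29.95 and 34.5 after 2 weeks, 134, 79.7, 91.4 and 81.3 after 4 weeks and 129, 102, 109 and 152 after 7 weeks. The 4-week and 7-week libraries lay above all 2-week libraries and within or near the range of the controls. VEGFA rose 2.98-fold from 2 to 7 weeks (1.57 ± 0.32, adjusted p = 0.0036) and 2.29-fold from 2 to 4 weeks (1.20 ± 0.31, adjusted p = 0.0434). The second call was lost without 4-week replicate 1, 2 or 3 or 2-week replicate 1, 3 or 4 (0.992 to 1.273). It was also lost with the cardiomyocyte covariate, with a block by replicate number and in the fit of the 2 groups alone. Against controls VEGFA stood at -1.30 ± 0.32 after 2 weeks (adjusted p = 0.0685) and at 0.28 ± 0.31 after 7 weeks.

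BNIP3, which acts in the removal of mitochondria, rose from 2 to 7 weeks by 0.70 ± 0.23 (62.2 to 80.4 CPM after 2 weeks, 74.8 to 158 after 7). The remaining 6 targets did not pass in any valve comparison with edgeR or DESeq2. They are CA9, a carbonic anhydrase that exports acid, ADM, the vasodilator adrenomedullin, NDRG1, a stress response gene, ANKRD37, and P4HA1 and P4HA2, the hydroxylases of collagen prolines. At 7 weeks against controls NDRG1 stood at 0.44 ± 0.21, ANKRD37 at 0.62 ± 0.34 and ADM at -0.43 ± 0.24. P4HA1 stood at 0.19 ± 0.15, P4HA2 at -0.02 ± 0.13 and CA9 at 0.19 ± 0.53, with overlapping groups for CA9 of 5.86 to 8.58 CPM and 4.13 to 13.1 CPM.

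Markers of other cells moved between 2 and 7 weeks as well. In this comparison 14 of the 15 macrophage, 7 of the 8 erythroid, 5 of the 9 cell cycle and 1 of the 4 atrial markers tested were called higher. All 4 neutrophil markers tested were called higher too, at low levels. Of the 10 endothelial markers 4 were called higher and 1 lower, and of the 8 smooth muscle markers 1 higher and 7 lower. The part of these cells in the members' values was not tested. Of the 20 cardiomyocyte markers 15 were called higher, and the 4 valve libraries with the highest GPI (7-week replicates 2 and 4, control replicate 3 and 4-week replicate 1) were the 4 with the highest cardiomyocyte marker sum. By the mean log2 level of the cardiomyocyte markers, control replicate 4 (9.393) ranked above 4-week replicate 1 (9.066), so there the match is not complete. When the mean log2 level of these markers was added to the fit as a covariate, 2 of the 15 members remained called. Over all 15973 genes tested the number called went from 4261 to 516. SLC16A3 stood at 3.04 ± 0.65 (adjusted p = 0.0268) and PFKP at -1.41 ± 0.26 (adjusted p = 0.0168). In the same fit HK3 stood at 2.21 ± 0.65 (adjusted p = 0.0776) and VEGFA at 0.96 ± 0.36 (adjusted p = 0.173). PFKM stood at -0.19 ± 0.28, LDHB at -0.07 ± 0.29 and ALDOA at -0.06 ± 0.33, all of them near 0. GAPDH stood at 0.15 ± 0.39, BNIP3 at 0.19 ± 0.31, TPI1 at 0.37 ± 0.32, GPI at 0.39 ± 0.27 and PKM at 0.46 ± 0.27, each at less than its value without the covariate. Of the calls lost, the differences of SLC16A1 (0.51 ± 0.21), PGAM1 (0.43 ± 0.21) and PGK1 (0.46 ± 0.20) stayed closest to theirs, and that of HK3 was larger. The summed LDHA rows, which are not among the 15, stood at 1.56 ± 0.34 from 2 to 7 weeks with the covariate (adjusted p = 0.0274) and were called from 2 to 4 weeks as well (adjusted p = 0.0198, beside 0.0787 without it). Marker content and weeks of diet move together in these libraries and cannot be told apart.

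**Figure D5:**
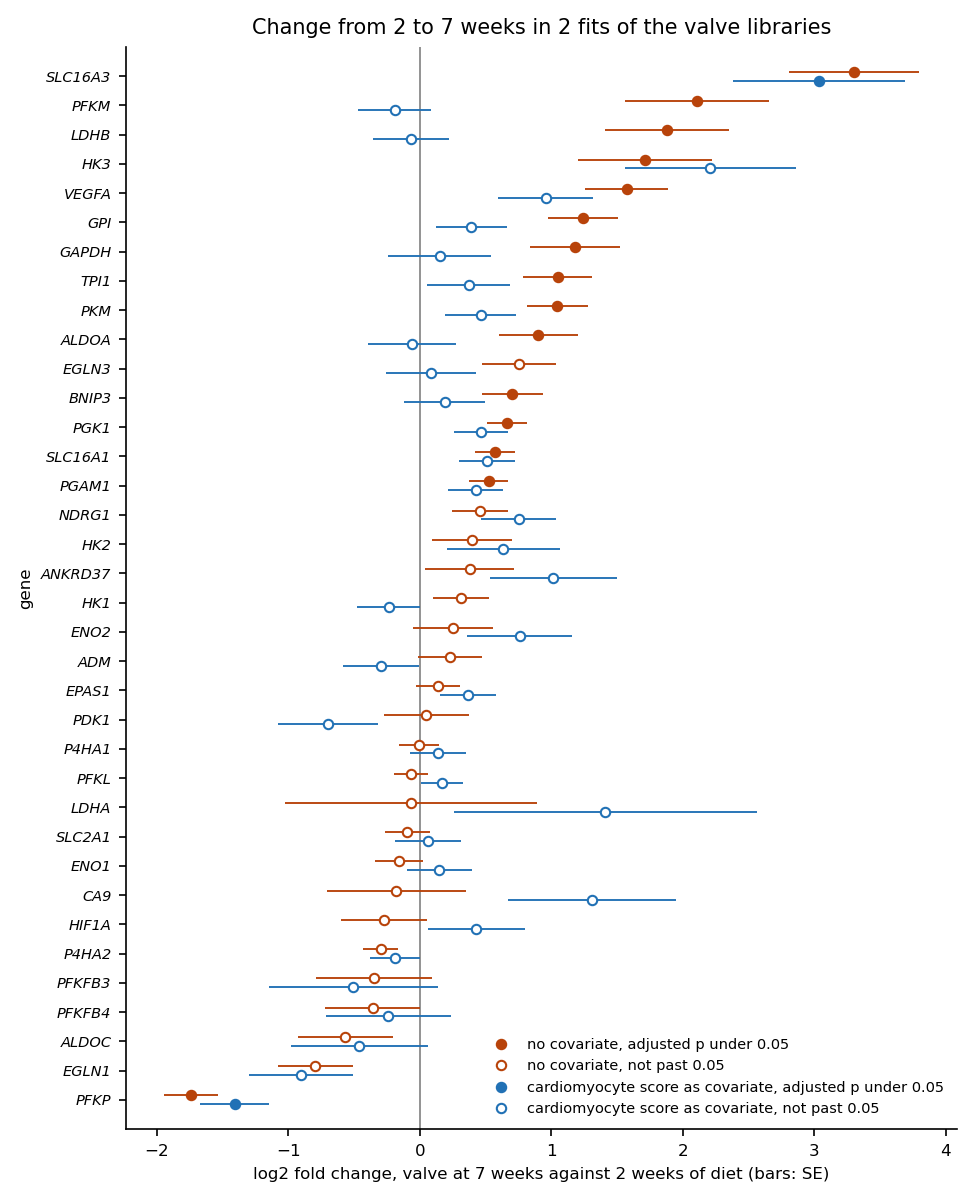
Log2 difference of the 36 members between valves after 7 and after 2 weeks of diet (points, with SE as bars), in the fit without and in the fit with the cardiomyocyte marker score as a covariate. Filled points have an adjusted p under 0.05: 15 members without the covariate, and SLC16A3 and PFKP with it.

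In the ascending aorta 0 of the 34 members tested passed between diet (n = 2) and control (n = 3) in edgeR, where 0.159% of all genes were called. SLC16A3 and HK3 were too low to be tested. An unadjusted p under 0.05 was seen for 5 members, beside 12.2% of all genes, and the 1 member called with DESeq2, beside 2.83% of all genes, was HIF1A. HIF1A stood at 269, 356 and 269 CPM in control and 453 and 441 in diet aortas, a difference of 0.56 ± 0.15 (adjusted p = 0.261). Both diet libraries were above all 3 controls in 15 of the 34 members, beside 19.8% of all genes, and the members' median difference was 0.174 beside -0.025 over all genes. VEGFA was among the 15, with 26.1, 25.02 and 22.1 CPM in control and 32.9 and 38.3 in diet aortas (0.51 ± 0.14). ANKRD37 was another, with 3.15, 3.27 and 2.38 and 5.98 and 6.11 CPM (1.01 ± 0.24). The cardiomyocyte marker sum was 2759 and 2786 CPM in the diet aortas and 1799 to 2294 in the controls. The sum of the 4 atrial markers was 112.5 and 121.7 CPM in diet and 0.787 to 2.05 in control aortas, and its part in these values was not tested. The difference of the diet effect between valve (mean of the 3 durations) and aorta passed for 0 of 36 members in edgeR (0.0474% of all genes called, 4 members at an unadjusted p under 0.05 beside 9.18% of all genes, and 0 called by DESeq2 beside 0.492%). Durations were not matched in this test, since diet aorta replicate 1 came from the animal of 2-week valve replicate 1. That animal was not blocked, so the 0 does not show that the effects were alike.

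In the myocardium 0 of the 33 members tested passed between diet and control (n = 3 each) in edgeR, where 0.0848% of all genes were called. HK3, CA9 and the LDHA row were not tested. An unadjusted p under 0.05 was seen for 4 members, beside 8.85% of all genes, and SLC16A1 and HK2 were the 2 called with DESeq2, beside 2.18% of all genes. SLC16A1 stood at 46.7, 44.9 and 49.02 CPM in control and 148, 109.5 and 241 in diet myocardium, all diet libraries above all controls (3.54-fold, 1.83 ± 0.30, adjusted p = 0.107). HK2 stood at 2.32, 3.423 and 1.58 CPM in control and 6.91, 3.81 and 13.8 in diet myocardium (1.75 ± 0.51, adjusted p = 0.303). Members with no overlap between the groups numbered 3 higher and 1 lower, beside 6.18% and 7.82% of all genes. The atrial marker sum was 18.7 to 153 CPM in diet and 2.03 to 4.11 in control myocardium, and the macrophage marker sum was 260.7 to 293 CPM in diet and 156 to 237 in control. Both sums separated the groups, although 0 of the 3 atrial and 0 of the 15 macrophage markers tested passed in edgeR, and their part in the SLC16A1 and HK2 values was not tested. The cardiomyocyte marker sum was 91770 to 156200 CPM in control and 141900 to 151600 in diet myocardium. Control replicate 3 had the lowest sum, and it also had the lowest control values of HK1 (435, 434 and 142 CPM) and PFKM (1831, 1201 and 577 CPM).

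The diet effect on SLC16A1 was tested for a difference between tissues. The 7-week valves were used because the diet myocardia came from 7-week animals by the library names. The effect at 7 weeks in the valve minus that in the myocardium was -1.35 ± 0.29 (adjusted p = 0.0366), and SLC16A1 was the 1 member of 36 called, with 0.639% of all genes called. In each tissue the diet libraries lay above the controls, and the test concerns the size. The call was lost when any 1 of 11 of the 14 libraries was left out (-1.4 to -0.948, adjusted p 0.0518 to 0.147): 7-week valve replicates 2, 3 and 4, all 4 control valves, all 3 control myocardia and diet myocardium replicate 3. With the animal as a block it stood at -1.09 ± 0.42 (adjusted p = 0.469) and did not pass.

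Normal tissues were compared in their control libraries (valve n = 4, aorta and myocardium n = 3 each), with 35 members tested and HK3 too low. Between valve and aorta 12 members were higher in the valve and 3 lower, 15 of 35, where 22.2% of all genes were called (13% higher and 9.19% lower). Their median was 0.476 beside -0.002 over all genes. SLC16A3 was close to 0 in aorta, with 0.0874, 0.193 and 0.0851 CPM beside 3.796, 1.795, 6.46 and 4.08 in valve and 17.5, 20.5 and 10.6 in myocardium. These aorta values rest on 1, 3 and 1 counts. The ratio of the summed counts per scaled library size was 29.8 for valve over aorta (95% exact interval 12.6 to 92.6, from 229 and 5 counts) and 121 for myocardium over aorta (51.4 to 373, from 595 and 5 counts), where the intervals cover counting error only. Diet aortas held 5 and 6 counts, a ratio over the controls of 2.96 (0.949 to 10.9).

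PFKM, LDHB and VEGFA followed the order myocardium, valve, aorta. PFKM stood at 46.9, 75.1 and 39.1 CPM in aorta and 1831, 1201 and 577 in myocardium beside the valve levels given above, which makes it higher in valve than aorta (2.21 ± 0.52) and lower in valve than myocardium (-2.28 ± 0.48). LDHB stood at 223, 245 and 272 CPM in aorta and 3726, 3482 and 2336 in myocardium (2.10 ± 0.37 and -1.60 ± 0.35 for the same differences). VEGFA stood at 26.1, 25.02 and 22.1 CPM in aorta and 666, 476 and 999 in myocardium (2.09 ± 0.39 and -2.79 ± 0.37). These 3 genes did not overlap between any pair of the 3 tissues. GPI had 127, 137 and 137 CPM in aorta and 746, 695 and 365 in myocardium (1.01 ± 0.26 and -1.17 ± 0.25), and PDK1 23.5, 20.3 and 20.3 CPM in aorta and 168, 223 and 79.6 in myocardium (-1.67 ± 0.43 for valve minus myocardium, -2.88 ± 0.49 for aorta minus myocardium). EGLN1 had 21.8, 20.7, 46.9 and 17.8 CPM in valve, 50.9, 65.4 and 57.5 in aorta and 98.97, 122 and 31.8 in myocardium (-1.66 ± 0.43 for valve minus myocardium). In valve against aorta, 17 of the 20 cardiomyocyte markers were also called higher.

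PFKP ran the other way, with 216, 340.3 and 225 CPM in aorta and 7.62, 10.01 and 10.1 in myocardium. It was lower in valve than aorta (-0.98 ± 0.19) and higher in valve than myocardium (3.82 ± 0.23). CA9 had 6.43, 7.89, 5.86 and 8.58 CPM in valve, 23.9, 44.97 and 23.9 in aorta and 0.372, 0.685 and 0.697 in myocardium, with -2.10 ± 0.27 for valve minus aorta and 3.57 ± 0.35 for valve minus myocardium. HIF1A had 68.4, 75.8 and 43.3 CPM in myocardium and was higher in valve (1.79 ± 0.26) and in aorta (2.24 ± 0.27). The order of PFKP and CA9 was aorta, valve, myocardium, with no overlap between neighbours. The smooth muscle marker sum had the same order, with 52830 to 65230 CPM in control aorta, 18790 to 30720 in control valve and 2457 to 3213 in control myocardium.

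ALDOC was highest in the valve, with 64.1, 50.2, 23.8 and 85.9 CPM, 19.2, 9.62 and 8.94 in aorta and 4.09, 2.48 and 4.12 in myocardium (2.15 ± 0.44 for valve minus aorta, 3.96 ± 0.49 for valve minus myocardium), and the valve overlapped neither tissue. ENO2 had 2.06, 5.88, 2.45 and 3.68 CPM in valve, 2.01, 1.67 and 1.53 in aorta and 0.279, 1.11 and 0.317 in myocardium. It was higher in valve than myocardium (2.62 ± 0.56) and in aorta than myocardium (1.60 ± 0.59), and valve and aorta did not differ beyond the threshold. PFKFB3 had 2.54, 0.7699 and 0.766 CPM in aorta and 1.301, 0.856 and 0.76 in myocardium and was higher in valve than in either (1.74 ± 0.54 and 2.21 ± 0.56). The LDHA row had 3.15, 1.03 and 43.2 CPM in aorta and 0.279, 0.599 and 0.253 in myocardium. It was lower in valve than aorta (-3.10 ± 0.98) and higher in aorta than myocardium (5.35 ± 1.29). With both rows summed the second difference became 2.538 ± 0.355 (adjusted p = 0.000176), and valve minus myocardium, which did not pass for the LDHA row alone (2.25 ± 1.23, adjusted p = 0.158), was 2.69 ± 0.35 (adjusted p = 0.000242). The first difference became 0.15 ± 0.31 (adjusted p = 0.764).

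Between valve and myocardium 11 members were higher in the valve and 16 lower, 27 of 35, where 46% of all genes were called (23.4% higher and 22.5% lower), and the members' median was -0.402 beside -0.002. Between aorta and myocardium 10 were higher in aorta and 17 lower, with 52.8% of all genes called (27% higher and 25.8% lower) and a median of -0.544 beside 0.043. The calls of GPI and PGK1 in valve against aorta were lost without any 1 aorta control (1.01 to 1.035 and 0.831 to 0.865), that of PFKM without aorta control replicate 3 (2.015), that of P4HA1 without valve control replicate 1, 3 or 4 or aorta control replicate 1 or 2 (0.37 to 0.473), and that of SLC16A1 without valve control replicate 1 or 4 or any 1 aorta control (0.385 to 0.46). PFKFB3 was lost without valve control replicate 1, 2 or 4 or aorta control replicate 2 or 3 (1.453 to 1.824), and the LDHA row without any 1 valve control or aorta control replicate 3 (-3.398 to -0.198). Control valve replicates 2 and 3 came from the same animals as control myocardium replicates 1 and 2. With the animal as a block, which leaves 1 residual degree of freedom, 17 members were called between valve and myocardium. All genes called in that fit numbered 5105 of 14922 tested, beside 46% without the block. The 17 members are not all among the 27 called without the block. The calls lost were those of ALDOA, ANKRD37, ENO1, ENO2, GAPDH, LDHB, P4HA1, PFKFB3, PKM, SLC16A1 and TPI1, with LDHB at -2.066 (adjusted p = 0.0798), ENO2 at 2.48 (adjusted p = 0.0623) and PFKFB3 at 1.416 (adjusted p = 0.0585). The call of EGLN3 was lost with a block by replicate number and that of SLC16A1 with all 27 libraries in 1 fit. In valve against myocardium the call of HK1 was lost without myocardium control replicate 1 or 2 (-0.985 to -0.982) and that of EGLN3 without valve control replicate 1, 2 or 4 or myocardium control replicate 1 or 2 (-1.114 to -0.604). There P4HA1 was lost without valve control replicate 1 or myocardium control replicate 1 (0.375 to 0.388), ANKRD37 without myocardium control replicate 1 (1.154) and TPI1 without myocardium control replicate 2 (-0.699). In aorta against myocardium ENO2 was lost without any 1 aorta control or myocardium control replicate 1 or 3 (1.237 to 1.694), and NDRG1 without any 1 aorta control or myocardium control replicate 1 or 2 (0.428 to 0.577).

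Other genes of glycolysis and pyruvate use were counted from a list of 28, of which 27 were tested in the valve. This list and the next were chosen with earlier results of these data known, so their shares are descriptive and no independent support. Against controls 0 passed at 2 weeks and 0 at 4 weeks in edgeR. An unadjusted p under 0.05 was seen for 15 at 2 weeks (55.6%, beside 16.4% of all genes) and 3 at 4 weeks (11.1%, beside 12.8%). At 7 weeks 2 rose and 1 fell (11.1%, beside 7.79% of all genes called). BPGM, which makes 2,3-bisphosphoglycerate and is abundant in red cells, was among those that rose (1.02 ± 0.18, adjusted p = 0.00633). PFKFB2, the heart form that makes fructose 2,6-bisphosphate, fell by 0.54 ± 0.16. Of the 8 erythroid markers tested, 5 rose as well at 7 weeks, and their part in the BPGM result was not tested. From 2 to 7 weeks 10 rose and 1 fell (40.7%, beside 26.7% of all genes called). ENO3, the muscle enolase (4.45 ± 0.83), PGAM2, the muscle mutase (2.94 ± 0.90), MPC1, of the mitochondrial pyruvate carrier (2.04 ± 0.48), TIGAR, a bisphosphatase (1.48 ± 0.40), and BPGM (1.38 ± 0.18) changed most. Of the 20 cardiomyocyte markers 15 were called higher from 2 to 7 weeks too, and their part in these values was not tested. From 2 to 4 weeks BPGM rose (0.69 ± 0.18), 3.7% of the list beside 4.36% of all genes. From 4 to 7 weeks 0 of 27 passed in edgeR, with 0.1% of all genes called. At an unadjusted p under 0.05 there were 6 (22.2%, beside 12% of all genes). In aorta 1 of 24 rose with diet, PGAM2 (3.15 ± 0.21), which is 4.17% beside 0.159% of all genes. There 2 of the 20 cardiomyocyte and 3 of the 4 atrial markers were called higher too, and their part in the PGAM2 value was not tested. At an unadjusted p under 0.05 there were 8 in aorta (33.3%, beside 12.2% of all genes). In myocardium 0 of 25 passed, with 0.0848% of all genes called, and 4 had an unadjusted p under 0.05 (16%, beside 8.85%).

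A list of 36 other genes of the hypoxia response, regulators of the factors among them, had 35 in the tables and 34 tested in the valve. Against controls 0 passed at 2 weeks in edgeR (10 at an unadjusted p under 0.05, 29.4% beside 16.4% of all genes). At 4 weeks 2 rose (5.88%, beside 2% of all genes), HMOX1, heme oxygenase (1.73 ± 0.38), and DDIT4, an inhibitor of mTOR (1.64 ± 0.35). At 7 weeks 5 rose and 3 fell (23.5%, beside 7.79% of all genes). IGFBP3, a binding protein of insulin-like growth factors, rose by 2.06 ± 0.56, HMOX1 by 2.05 ± 0.38 and DDIT4 by 1.38 ± 0.35, while ARNT2, a partner of the alpha subunits, fell by 1.29 ± 0.30 and GBE1, the glycogen branching enzyme, fell by 0.81 ± 0.23, and the PFKFB2 named above is in this list too. From 2 to 4 weeks 3 rose and 1 fell (11.8%, beside 4.36% of all genes), with DDIT4 at 2.10 ± 0.35, HMOX1 at 1.53 ± 0.37 and the transcription factor BHLHE40 at 1.04 ± 0.28. From 2 to 7 weeks 10 rose and 7 fell (50%, beside 26.7% of all genes), with IGFBP3 at 2.51 ± 0.57, LOX, which crosslinks collagen and elastin, at -2.03 ± 0.35, the lipoprotein receptor VLDLR at 1.87 ± 0.64, DDIT4 at 1.84 ± 0.35 and HMOX1 at 1.84 ± 0.38. Of the 15 macrophage markers, 13 were called higher than in controls at 4 weeks and 13 at 7 weeks. Their part in the HMOX1 values was not tested. From 4 to 7 weeks 0 of 34 passed in edgeR, with 0.1% of all genes called (7 at an unadjusted p under 0.05, 20.6% beside 12% of all genes). In aorta 0 of 34 passed, with 0.159% of all genes called (11 at an unadjusted p under 0.05, 32.4% beside 12.2% of all genes). In myocardium 1 of 34, IGFBP3, rose with diet (3.46 ± 0.35, adjusted p = 0.0196), which is 2.94% beside 0.0848% of all genes. There 7 had an unadjusted p under 0.05 (20.6%, beside 8.85% of all genes).

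In normal tissues the other glycolysis and pyruvate genes (26 tested) had 13 higher and 1 lower in valve than aorta (53.8%, beside 22.2% of all genes). They had 7 higher and 13 lower in valve than myocardium (76.9%, beside 46%), and 5 higher and 17 lower in aorta than myocardium (84.6%, beside 52.8%). The largest differences of valve minus aorta were PGAM2 (6.15 ± 0.54), ENO3 (5.23 ± 0.56), PDK4, a kinase of pyruvate dehydrogenase (4.00 ± 0.96), FBP1, of gluconeogenesis (3.79 ± 1.18), and PFKFB1 (3.09 ± 0.88). Those of valve minus myocardium were FBP1 (3.03 ± 1.10), PFKFB1 (2.99 ± 0.88), TKT, transketolase (2.42 ± 0.26), PGAM2 (-2.22 ± 0.39) and PDK3 (2.19 ± 0.15). In aorta minus myocardium they were PGAM2 (-8.38 ± 0.59), ENO3 (-7.27 ± 0.63), PDK4 (-4.86 ± 1.02), TIGAR (-3.90 ± 0.43) and MPC1 (-3.89 ± 0.37). Of the 20 cardiomyocyte markers 17 were called higher in valve than aorta, and their part in the PGAM2 and ENO3 values was not tested.

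The other hypoxia response genes (34 tested) had 6 higher and 2 lower in valve than aorta (23.5%, beside 22.2% of all genes). They had 5 higher and 12 lower in valve than myocardium (50%, beside 46%), and 7 higher and 15 lower in aorta than myocardium (64.7%, beside 52.8%). VLDLR (3.80 ± 0.65), HIF3A, a further alpha subunit (2.16 ± 0.60), PGF, a vascular growth factor (1.85 ± 0.32), KDR, the endothelial receptor of VEGFA (1.44 ± 0.38), and CITED2, a brake on the factors (-1.17 ± 0.29), differed most between valve and aorta. Between valve and myocardium large differences included LOX (3.85 ± 0.30), KDR (-2.66 ± 0.36), FLT1, another receptor of VEGFA (-2.52 ± 0.37), and VLDLR (-2.35 ± 0.55). Between aorta and myocardium they included VLDLR (-6.15 ± 0.73), LOX (4.55 ± 0.32), KDR (-4.10 ± 0.43) and FLT1 (-3.62 ± 0.43).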

How the data were processed

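RNA was extracted with Trizol from tissue kept in RNAlater and sequenced as 100 bp single-end reads on an Illumina NovaSeq from directional NEBNext Ultra II libraries, per the labels' protocols. The authors deposited expected counts (RSEM estimates of reads per gene, not normalised) in 1 table per tissue, for which the submitters' processing notes name STAR 2.7.8a and RSEM 1.3.3, beside Trim Galore 0.6.6, FastQC 0.11.9 and edgeR 3.42.4. The genome build, annotation and strand setting of the counting are unknown (not given in the sources used here), and reads of an antisense gene may be counted with any member. Of the valve values 10.1% were not whole; all were rounded. Reads shared with other rows gave fractions in at least 26 of 27 libraries for HK1, PFKFB3, PGK1, LDHA, LDHB and P4HA1, whose values are less certain.

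Members were matched by symbol. Differences were tested with the quasi-likelihood F test of edgeR 4.0.16 (R 4.3.3), two-sided, after filterByExpr by group with at least 10 counts and 15 in total, and TMM. P-values were Benjamini-Hochberg adjusted over every gene tested, and 0.05 was the threshold. All 16 valve libraries entered 1 fit of the full table. Aorta and myocardium were fitted alone, the 10 control libraries jointly for the normal tissues, and differences of the diet effect between tissues as such in joint fits. The SE is the log2 difference divided by the root of F. Marker scores used the mean log2(CPM + 1). Depth limits the low genes: SLC16A3 in aorta rests on 1 to 6 counts. Counting intervals were exact, at 95%. Replicates are different animals by the library names.

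Values per library are given for members past the threshold (up to 6 in each direction per comparison) and, in the valve, for the regulators, isoforms and transporters chosen for it, with the others by range and count. For other pathway genes, up to 5 called genes with the largest change are named, except for items that are not reported here. The members and lists were chosen with earlier results of these data known. Alternatives were RLE scaling, no filter, DESeq2 1.42.0, the groups alone or all 27 libraries in 1 fit, the authors' valve table without myocardial genes, a cardiomyocyte covariate, a replicate block and leaving out each library. The summing of the LDHA rows was added after seeing the data. The fits were tested on simulated data. Replicate numbers name different animals, and same-numbered libraries correlated at -0.508 to 0.225 in their deviations from the group means, so the numbers were not taken to pair them. Libraries of valve and myocardium from the same animal correlated at 0.021 to 0.536.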

Additional observations from a re-analysis of the deposited data

Results flagged for a closer look

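Among the members and the row LOC100009107, 148 groups of 4 valve libraries were checked for a library far from the other 3 by Dixon's ratio. In 5 of them 1 library stood apart, and chance gives about 1 in 20 groups. PFKM stood at 80.5 CPM in 2-week replicate 2 beside 51.53 to 55.08 in the other 3. GPI stood at 328.5 CPM in 4-week replicate 1 beside 199.7 to 216.8, and that library had the highest cardiomyocyte marker sum of its group. ENO2 stood at 4.638 CPM in 2-week replicate 4 beside 3.734 to 3.876. The LDHA row stood at 128.7 CPM in 7-week replicate 1 beside 3.402 to 5.912, and with LOC100009107 added it stood at 268.9 CPM beside 154.8 to 250.8. CA9 stood at 17.17 CPM in 4-week replicate 3 beside 7.256 to 8.359.

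The effect of the diet on SLC16A1 was called as different between the valve at 7 weeks and the myocardium in a test of the difference itself (-1.348 on the log2 scale, valve minus myocardium). Some of these libraries share animals, and with the animal as a block the difference did not pass (-1.09, adjusted p = 0.469). It did not pass either when any 1 of 11 of the 14 libraries was left out.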

How the results depend on the processing

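Over all alternatives, single libraries left out included, 151 counts of members called stayed within 1.5 times of the reported count and 49 did not. Those that did not, other than for single libraries, were these. With DESeq2 the counts were 6 at 2 weeks against controls, 8 at 7 weeks, 1 from 4 to 7 weeks, 1 in aorta, 2 in myocardium and 2 for the difference of 7-week valve and myocardium effects, which was also 2 with RLE scaling. In the same order DESeq2 called 6.04%, 13.9%, 1.3%, 2.83% and 2.18% of all genes, and 504 of 16581 for the difference of effects. RLE scaling called 117 of 16581 genes there. Without a filter myocardium had 1 member, where 76 of 22147 genes were called. With the 2 groups alone the counts were 4 at 2 weeks, 0 at 4 weeks and 1 from 2 to 4 weeks. All genes called there were 431 of 14768, 2 of 15105 and 196 of 15141. With the cardiomyocyte covariate the members called were 0 at 4 weeks, 2 from 2 to 4 weeks and 2 from 2 to 7 weeks. All genes called there were 0, 442 and 516 of 15973. With the LDHA rows summed there were 2 members at 4 weeks, where 320 of 15972 genes were called. With the replicate block by number, which does not pair animals, 0 members passed at 4 weeks and 2 from 2 to 4 weeks. All genes called there were 5 and 264 of 15973. With the replicate block by animal 17 members passed between normal valve and myocardium, with 1 residual degree of freedom, and 0 for the valve and myocardium effects. All genes called there were 5105 of 14922 and 0 of 16581. The cause was not tested in any of these.

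Leaving out 1 library in turn gave 0 to 5 members at 2 weeks, 0 to 2 at 4 weeks, 1 to 4 at 7 weeks, 1 to 5 from 2 to 4 weeks, 11 to 19 from 2 to 7 weeks, 0 to 1 in aorta, 0 in myocardium, from 4 to 7 weeks and for the valve and aorta effects, 9 to 17 for valve against aorta, 23 to 28 for valve against myocardium, 25 to 27 for aorta against myocardium and 0 to 2 for the valve and myocardium effects. Over all genes the same fits called 0 to 515 at 2 weeks, 0 to 791 at 4 weeks and 445 to 2261 at 7 weeks. They called 207 to 1225 from 2 to 4 weeks and 2626 to 5608 from 2 to 7 weeks. In aorta they called 2 to 284, and for the valve and myocardium effects 5 to 176. Between normal tissues they called 1795 to 3356 in valve against aorta, 5577 to 7502 in valve against myocardium and 7072 to 8365 in aorta against myocardium. Signs turned for ALDOA (-0.06), LDHB (-0.071) and PFKM (-0.191) from 2 to 7 weeks with the covariate, and for LDHA with its rows summed, to 0.875 from 2 to 7 weeks and 0.151 for valve against aorta. Counts below about 1 CPM, as for HK3, limit what can be seen at this depth.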
